A study of Mus musculus with 6 samples.

Results

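Heat shock proteins, their J-domain co-chaperones and the heat shock transcription factors were followed in isolated pancreatic islets of C57BL6 mice. Members were chosen by gene symbol: the HSPA, HSPB, HSPD, HSPE, HSPH and HSP90 names, the numbered DNAJA, DNAJB and DNAJC names, and HSF1 to HSF5. The chaperones of the endoplasmic reticulum lumen HSPA5, HSP90B1, DNAJB9, DNAJB11, DNAJC3 and DNAJC10 were left out, as were pseudogenes. This gave 71 of the 48321 gene names in the deposited table. RNA had been sequenced from 3 samples of mice on a high-fat diet and 3 samples of mice on normal chow, all labelled wild type. The high-fat mice were put on food with 60% of its calories from fat at the age of 3 months and kept on it for 4 months. How old the chow mice were, the sex of the mice and whether animals were pooled was not given in the sources used here. In its title the series names AKT and mTOR in palmitate-exposed beta-cells, and the 2 diets ask how the transcripts of whole islets differ with the food.

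Heat shock proteins are molecular chaperones that bind unfolded or unstable proteins. The HSP70 proteins bind and release their clients in a cycle of ATP use. J-domain proteins, the DNAJ families, deliver clients and start ATP hydrolysis, and HSP110 proteins and HSPBP1 exchange the nucleotide. HSP90 finishes many kinases and receptors, HSPD1 with HSPE1 folds proteins inside mitochondria, and the small HSPB proteins hold unfolded proteins without ATP. Under heat or other protein damage, HSF1 switches on a subset of these genes, foremost Hspa1a, Hspa1b, Hsph1 and Dnajb1, through heat shock elements in their promoters. Beta-cells fold large amounts of proinsulin and are known for a heavy load on their chaperones.

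The values were taken as CPM, read counts scaled to a common library total, though the unit is not labelled. They summed to 963615, 832416 and 879301 over all gene names in the high-fat libraries, against 841705 and 674482 in the chow libraries. The totals implied by the value of a single read, in units of 1 M (mega) reads, were 23.7, 35.1 and 23.5 in high-fat replicates 1, 2 and 3, against 18.8 and 24.7 in chow replicates 1 and 3. The column of chow replicate 2 was the arithmetic mean of the other chow columns in 48321 of 48321 gene names, so chow had n = 2 and the high-fat diet n = 3. Beta-cell markers summed to 87868, 95727 and 87653 CPM in the high-fat libraries, against 57623 and 80115 CPM in the chow libraries. Markers of the surrounding acinar cells took 13.7%, 1.86% and 5.53% of the summed CPM in the high-fat libraries, against 36.3% and 13.7% in the chow libraries. In bulk islets, fewer cells of a type and less RNA per cell cannot be told apart. The non-polyadenylated RNAs Rn7sk, Rpph1, Rmrp, Rn7s1 and Rn7s2 summed to 31337, 26502 and 20791 CPM in the high-fat libraries, against 9.12 and 16.0 CPM in the chow libraries. Diet and library type therefore cannot be told apart for any gene below.

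Of the 71 members, 64 averaged 0.5 CPM or more across the 5 libraries and were tested with limma beside all 16939 genes that passed this filter. The remaining 7 (Dnajb7, Dnajb8, Hsf3, Hsf5, Hspb2, Hspb3 and Hspb9) reached at most 0.425 CPM in any library. At a Benjamini-Hochberg adjusted p below 0.05, 10 members were higher in high-fat islets and 10 were lower. That is 15.6% of the tested members in each direction, against 14.9% of all tested genes higher and 8.78% lower. The share of higher members was close to that of all genes. Counts by class and by list below are to be read beside these shares of all genes. With an unadjusted limma p below 0.05 as the cut, 4032 of the 16939 tested genes were higher and 2544 lower. Counts at that cut are to be read beside these. Libraries of the diets did not overlap in 17 members on the higher side and 17 on the lower side (26.6% each), against 32.8% and 22.5% of all tested genes. The median log2 fold change was 0.01 over the members and 0.05 over all genes.

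The split between directions followed the scaling of the libraries. With median-ratio scaling, 9 members were higher and 12 lower. With library sizes that excluded acinar and insulin transcripts, 1 was higher and 41 lower, and the median of all genes moved to -0.44. With the summed CPM of all genes as library size, 1 was higher and 12 lower, with a median of -0.15 over all genes. Counts also moved when a library was left out. They were 4 higher and 6 lower without high-fat replicate 1, 5 and 3 without high-fat replicate 2, and 6 and 3 without high-fat replicate 3. Leaving out chow replicate 1 gave 4 and 10, and leaving out chow replicate 3 gave 14 and 5. With either chow library gone, the spread comes from the high-fat libraries alone, and the lone chow sample is assumed to vary like them. A fit that includes an acinar score gave 3 and 3. That fit spends a further coefficient on few libraries, and acinar content varied along with the diet. Its smaller counts can come from lost power and do not show what acinar cells contribute.

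**Figure D1:**
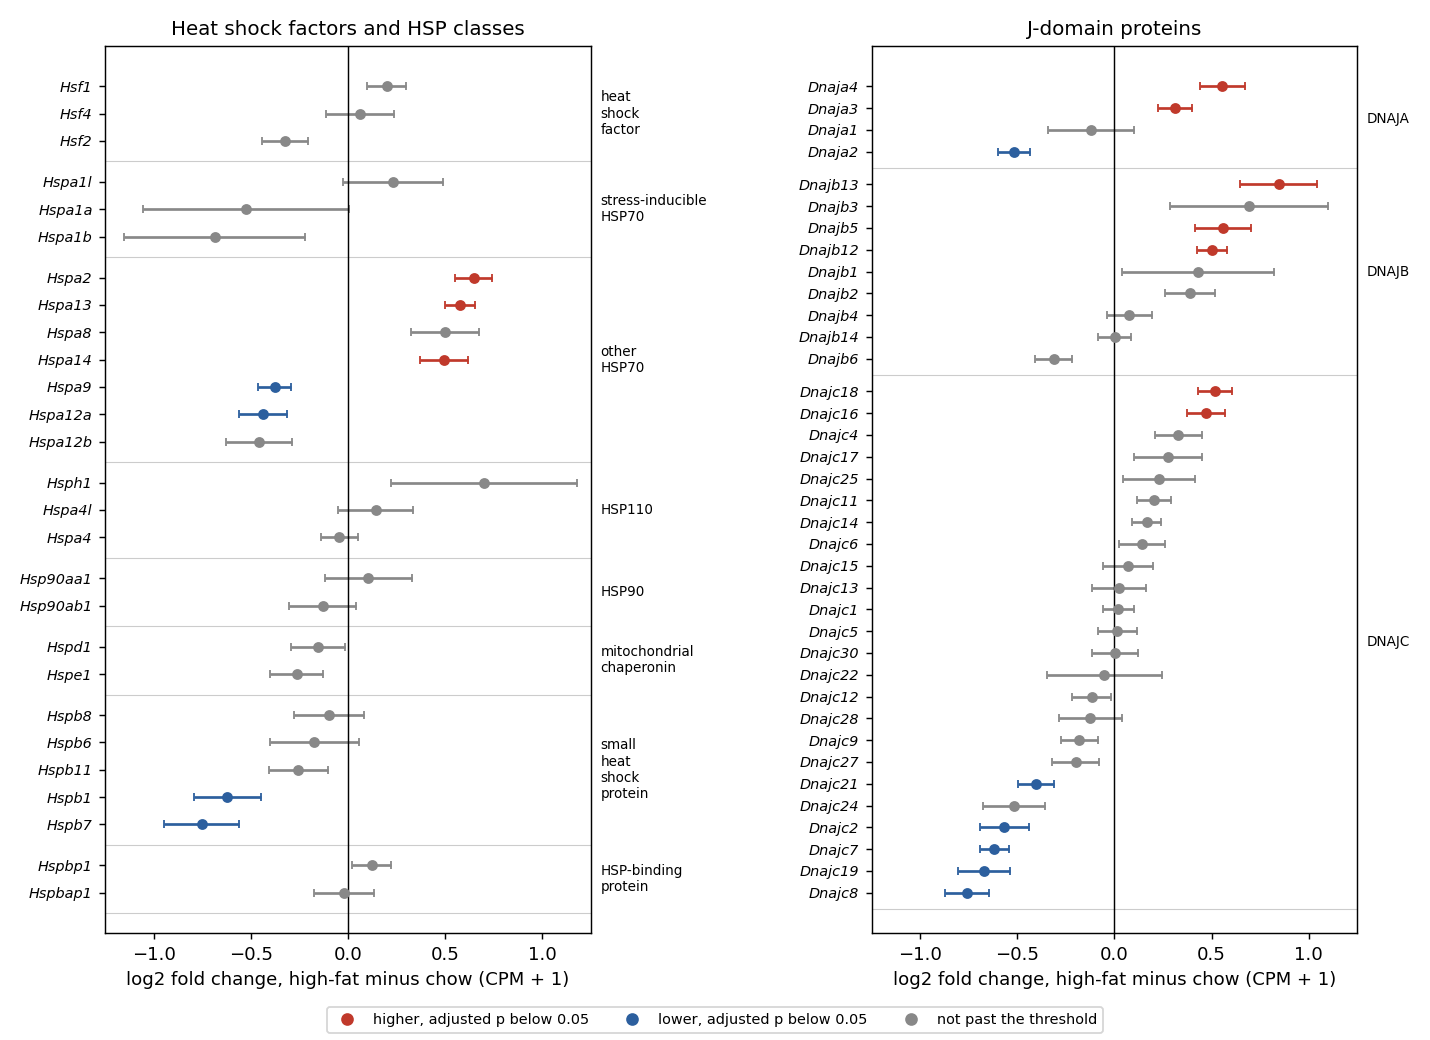
Log2 fold change of each of the 64 tested members, high-fat minus chow, on the log2(CPM + 1) scale (x axis), grouped by class. Points are limma estimates from 3 high-fat and 2 chow libraries and bars are their standard errors. Red points are the 10 members past the threshold and higher, blue points the 10 lower. The widest bars belong to Hspa1a, Hsph1 and Hspa1b.

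The genes that heat induces most strongly did not separate the diets, and they differed between the chow libraries more than between the diets. Hspa1a, an inducible HSP70, was at 25.4, 18.8 and 22.4 CPM in the high-fat libraries, against 14.9 and 68.1 CPM in the chow libraries. All high-fat libraries lay between the chow libraries. Its near-identical neighbour Hspa1b was at 31.5, 18.4 and 28.1 CPM in the high-fat libraries, against 22.5 and 75.9 CPM in the chow libraries. The log2 fold changes were -0.53 ± 0.53 for Hspa1a (SE; limma adjusted p = 0.501) and -0.69 ± 0.47 for Hspa1b (adjusted p = 0.317).

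Hsph1, an HSP110 that exchanges the nucleotide of HSP70, was at 129.7, 93.9 and 143 CPM in the high-fat libraries, against 38.6 and 140.3 CPM in the chow libraries. Dnajb1, the stress-inducible J-domain partner of HSP70, was at 53.2, 43.9 and 42.2 CPM in the high-fat libraries, against 19.6 and 58.6 CPM in the chow libraries. For both genes chow replicate 1 was the lowest of the 5 libraries, and high-fat replicate 3 exceeded chow replicate 3 for Hsph1 but not for Dnajb1. The log2 fold changes were 0.70 ± 0.48 for Hsph1 (SE; limma adjusted p = 0.323) and 0.43 ± 0.39 for Dnajb1 (adjusted p = 0.452). Hspa1l, the testis-enriched neighbour of Hspa1a and Hspa1b, was low, at 1.13, 0.917 and 1.86 CPM in the high-fat libraries, against 0.542 and 1.42 CPM in the chow libraries (adjusted p = 0.542). Of these 3 HSP70 genes, 0 passed the threshold and 0 had an unadjusted limma p below 0.05.

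The values of these genes depended on which chow library was kept. A fit with 1 chow library takes its spread from the high-fat libraries and assumes that the lone chow sample varies like them, which the ratios between the chow libraries below go against, so its p-values are no evidence of a difference between the diets. Without chow replicate 3, the log2 fold change was 1.62 for Hsph1, 1.20 for Dnajb1 and 0.49 for Hsp90aa1 (limma adjusted p = 0.00572, 0.00372 and 0.0486). Without chow replicate 1, Hspa1a and Hspa1b stood at -1.58 and -1.54 (limma adjusted p = 0.00354 and 0.0196), while Hsph1 and Dnajb1 stood at -0.22 and -0.34 (adjusted p = 0.560 and 0.173). With the summed CPM as library size, Hspa1b was called lower, at -0.92 (adjusted p = 0.0126).

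Chow replicate 3 exceeded chow replicate 1 by 4.56 times for Hspa1a, 3.64 times for Hsph1, 3.38 times for Hspa1b, 2.99 times for Dnajb1 and 2.62 times for Hspa1l. By this ratio they ranked 119, 152, 175, 212 and 267 from the top among the 16939 tested genes, whose median ratio was 1.05. Over all members, 6 of 64 (9.38%) had a ratio of at least 2, against 3.15% of all tested genes, the sixth being Dnajb13. Hspa1a and Hspa1b share much of their sequence, as given below, so the 6 may not all be separate measurements. Hspa1l and Dnajb13 were at 0.542 and 0.373 CPM in chow replicate 1, so their ratios rest on few reads. At a ratio of at least 1.5 there were 11 members (17.2%), against 8.37% of all genes. The other 5 were Dnajb3, Hspb6, Hsp90aa1, Dnaja1 and Hspa4l. Hspb1 had a ratio of 1.17, and a list of 17 other heat shock response genes, taken up below, a median of 1.20. With library sizes that excluded acinar and insulin transcripts the ratio of Hspa1a was 4.32, and with the summed CPM as library size it was 5.69. Within the high-fat libraries, the highest value of Hspa1a was 1.35 times the lowest, that of Hsph1 1.53 times and that of Dnajb1 1.26 times. The same spread was wider for Hspa1b, at 1.71 times, and for Hspa1l, at 2.03 times. Of the 11 members, 8 were lowest in high-fat replicate 2 among the high-fat libraries, against 31 of all 64 tested members (48.4%) and 29.4% of all tested genes. This is a description of 5 libraries, with no test. Acinar markers were higher in chow replicate 1. Hormone genes of other islet cells also differed between chow replicates 1 and 3, with Gcg at 10102 and 2332 CPM and Ppy at 854 and 2907 CPM. Sst was closer, at 869 and 927 CPM. The part of these cell types in the difference between the chow libraries was not tested.

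**Figure D2:**
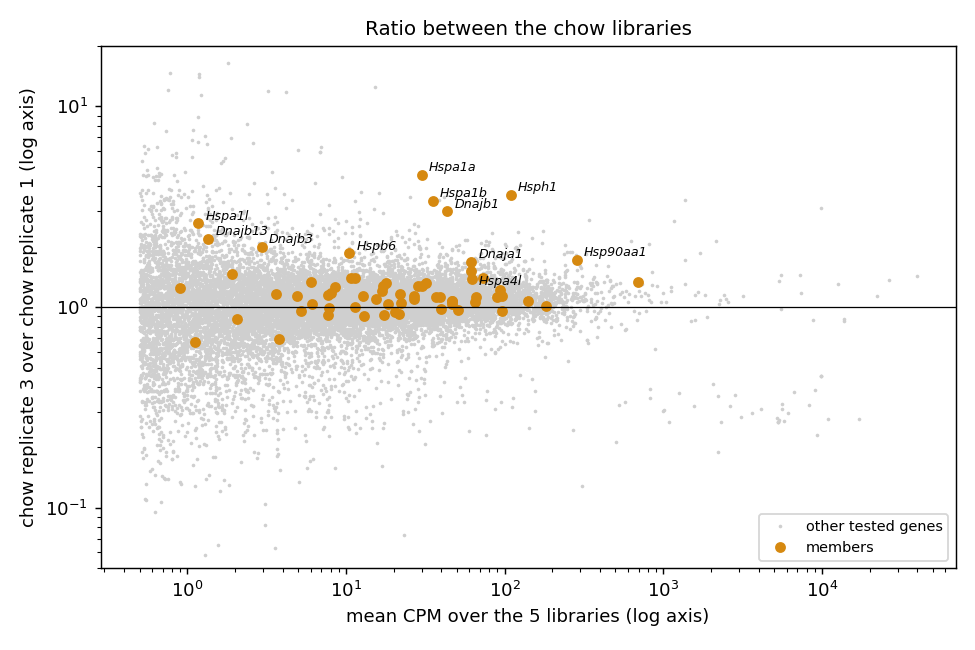
Ratio of chow replicate 3 to chow replicate 1 (y axis, log) against the mean CPM over the 5 libraries (x axis, log) for 16823 tested genes above 0 in both chow libraries, of which 36 fall outside the axis. Orange points are the 64 tested members and grey points the other genes. Hspa1a, Hsph1, Hspa1b and Dnajb1 stand highest among the members, at 2.99 to 4.56.

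Immediate early genes, a list of fast-induced transcription factors and their like, were higher in chow replicate 1, with a summed level of 266, 260 and 282 CPM in the high-fat libraries, against 528 and 332 CPM in chow replicates 1 and 3. Of 17 tested immediate early genes, 8 were lower and 2 higher in high-fat islets. Their part in the results on chaperones was not tested. Stip1, the HSP70 to HSP90 adaptor, was at 61.4, 45.5 and 64.9 CPM in the high-fat libraries, against 28.1 and 54.2 CPM in the chow libraries. Ahsa1, which stimulates the ATPase of HSP90, was at 46.7, 40.8 and 55.2 CPM in the high-fat libraries, against 24.7 and 45.7 CPM in the chow libraries. Neither passed the threshold (limma adjusted p = 0.201 and 0.199), both turned below 0 with library sizes that excluded acinar and insulin transcripts (-0.046 and -0.091), and both were named after their values were seen.

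Promoters with a match are shown because the heat shock element is the sequence HSF1 reads. The windows came from RefSeq on GRCm38.p6, 250 bases before to 50 after each gene start, and were found for 56 of the 71 members. No window was found for Hsp90aa1, Hsp90ab1, Hspa8, Hspa9, Hspa13, Hspb2, Hsf1, Hsf4, Dnajc2, Dnajc5, Dnajc11, Dnajc12, Dnajc18, Dnajc22 and Dnajc30. Whether these members have an element was therefore not looked at. A 3-unit element was written as GAA, any 2 bases, TTC, any 2 bases and GAA, or the same with GAA and TTC exchanged, which covers both strands. It was in the windows of 4 members (7.14%), Hspd1, Hspe1, Hsph1 and Dnajb6, and in those of 0.662% of the 27025 genes in the table. A 2-unit form, GAA and TTC in either order with any 2 bases between, which the 3-unit form contains, was in 15 members (26.8%) and 17.0% of all genes. Not printed are the windows with a 2-unit match of Dnaja1, Dnaja4, Dnajb4, Dnajc27, Hsf5, Hspb1, Hspb3, Hspb6 and Hspb8. A match is a description and not a site shown to be bound. The 2 windows of Dnajb1 held 0 matches to either form, which says only that these letters are not in them. Hspd1 and Hspe1 lie head to head on chromosome 1, with 215 bases between their starts, so that 1 run of overlapping units serves both windows. In the following lines capitals mark the matched elements: 3-unit matches in the Hspd1-Hspe1, Hsph1 inner and Dnajb6 lines, and 2-unit matches in the others.
Hspd1-Hspe1 interval, chr1:55087933-55088147, plus strand, the sense of Hspe1: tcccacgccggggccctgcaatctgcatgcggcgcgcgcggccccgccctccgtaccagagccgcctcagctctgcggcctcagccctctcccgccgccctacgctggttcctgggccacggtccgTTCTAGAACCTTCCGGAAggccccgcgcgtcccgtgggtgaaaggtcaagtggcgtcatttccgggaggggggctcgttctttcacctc
Hspa1a, last 120 bases before its start, chr17:34972157-34972276, minus strand: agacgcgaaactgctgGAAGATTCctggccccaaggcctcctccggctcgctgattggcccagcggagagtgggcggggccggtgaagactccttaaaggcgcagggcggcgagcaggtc
Hspa1b, last 120 bases before its start, chr17:34959239-34959358, minus strand: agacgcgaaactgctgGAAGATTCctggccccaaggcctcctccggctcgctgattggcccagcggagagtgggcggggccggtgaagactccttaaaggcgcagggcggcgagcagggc
Hsph1, last 100 bases before its outer start, chr5:149636337-149636436, minus strand: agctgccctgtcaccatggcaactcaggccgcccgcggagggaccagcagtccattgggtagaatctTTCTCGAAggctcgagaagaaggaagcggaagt
Hsph1 inner, the element just past its inner start, chr5:149636280-149636308, minus strand: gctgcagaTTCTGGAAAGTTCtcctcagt
Dnajb6, last 100 bases before its outer start, chr5:29735798-29735897, plus strand: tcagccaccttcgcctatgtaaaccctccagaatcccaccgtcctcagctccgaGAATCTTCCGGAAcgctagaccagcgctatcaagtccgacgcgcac

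The printed stretches of Hspa1a and Hspa1b were the same at 119 of 120 positions, and their whole windows at 296 of 300. Their transcripts were also alike: 63.8% of the 31-base words of the longest coding Hspa1a transcript in GENCODE M21 occurred in Hspa1b. How the authors counted reads that fit both is not given, so these 2 rows may not be separate measurements. Hspd1, the chaperonin subunit HSP60, was at 63.0, 55.1 and 60.3 CPM in the high-fat libraries, against 56.4 and 77.7 CPM in the chow libraries (limma log2 fold change -0.15 ± 0.14, SE, adjusted p = 0.453). Hspe1, its lid HSP10, was at 17.3, 14.9 and 17.0 CPM in the high-fat libraries, against 17.3 and 22.8 CPM in the chow libraries (-0.26 ± 0.14, adjusted p = 0.199). For the pair, high-fat replicate 2 was the lowest and chow replicate 3 the highest of the 5 libraries. Of the 2 genes, 0 passed the threshold and 0 had an unadjusted limma p below 0.05. Dnajb6, a J-domain protein that holds back aggregation, was at 25.0, 25.8 and 22.8 CPM in the high-fat libraries, against 29.3 and 32.2 CPM in the chow libraries. The diets did not overlap, at -0.31 ± 0.09 (limma adjusted p = 0.0517).

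**Figure D3:**
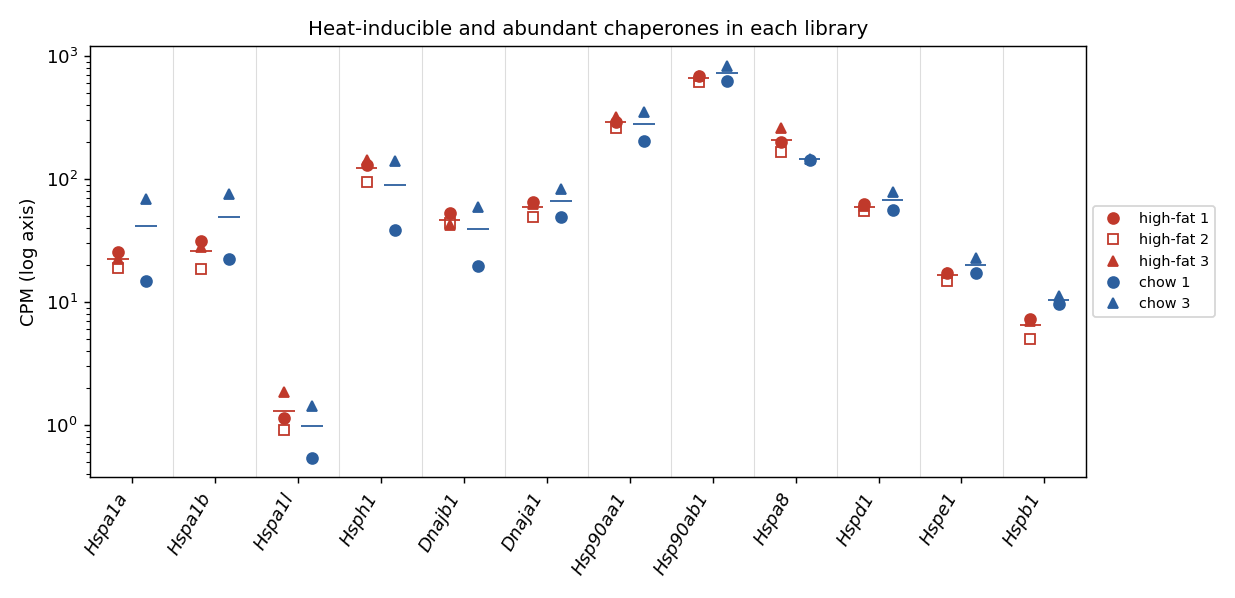
CPM (y axis, log) of 12 heat-inducible or abundant chaperone genes in each library, with the 3 high-fat libraries in red on the left of each column and the 2 chow libraries in blue on the right; short lines are the means. Chow replicate 3 (blue triangles) lies above chow replicate 1 (blue circles) by 2.62 to 4.56 times in Hspa1a, Hspa1b, Hspa1l, Hsph1 and Dnajb1.

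The transcription factors of the response showed no change past the threshold. Hsf1, the main factor of the heat shock response, was at 18.4, 17.1 and 19.6 CPM in the high-fat libraries, against 16.6 and 15.2 CPM in the chow libraries (limma log2 fold change 0.20 ± 0.10, SE, adjusted p = 0.197). Its sign turned with the summed CPM as library size (-0.03) and with library sizes that excluded acinar and insulin transcripts (-0.35, adjusted p = 0.0235). Hsf2, which binds the same elements, was at 16.6, 14.3 and 14.7 CPM in the high-fat libraries, against 17.5 and 21.1 CPM in the chow libraries. The diets did not overlap for Hsf2, at -0.33 ± 0.12 (adjusted p = 0.0888). Hsf4, known from the lens, was at 4.26, 3.47 and 3.87 CPM in the high-fat libraries, against 4.36 and 3.04 CPM in the chow libraries. Of these 3 tested factors, 0 passed the threshold, and 1 (Hsf2) had an unadjusted limma p below 0.05. Hsf3 and Hsf5 were below the filter.

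Per kilobase of the longest coding transcript, the most abundant members were Hsp90ab1, Hsp90aa1, Hspa8, Hspa9 and Dnaja4. Their levels were 263, 88.2, 87.0, 41.1 and 35.8 CPM per kilobase as means of the high-fat libraries, against 291, 84.6, 60.4, 53.5 and 24.3 CPM per kilobase in the chow libraries. Hsp90ab1, the constitutive cytosolic HSP90, was at 688, 613 and 689 CPM in the high-fat libraries, against 629 and 835 CPM in the chow libraries (limma log2 fold change -0.13 ± 0.17, SE, adjusted p = 0.614). Hsp90aa1, the inducible cytosolic HSP90, was at 289.9, 257 and 321 CPM in the high-fat libraries, against 204 and 351 CPM in the chow libraries. High-fat libraries lay between the chow libraries for Hsp90aa1, at 0.10 ± 0.22 (adjusted p = 0.760, and -0.14 with the summed CPM as library size). Neither of the 2 HSP90 genes passed the threshold, and 0 had an unadjusted limma p below 0.05. Hspa8, the constitutive cytosolic HSP70, was at 201, 167 and 258 CPM in the high-fat libraries, against 144 and 146 CPM in the chow libraries. The diets did not overlap for Hspa8, at 0.50 ± 0.17 (adjusted p = 0.0791), and it was called higher without high-fat replicate 2 (0.65, adjusted p = 0.0498). Of the 31-base words of their longest coding transcripts, 77.2% for Hspa8, 62.9% for Hsp90aa1 and 55.8% for Hspd1 occurred in other annotated genes. Reads of such genes can be split among copies.

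Among the other HSP70 genes, 3 of 7 rose and 2 fell, against 14.9% and 8.78% of all tested genes. Library sizes that excluded acinar and insulin transcripts gave 0 higher and 3 lower, and with the summed CPM 0 were higher and 2 lower. Leaving out high-fat replicate 1, 2 or 3 gave 2, 3 and 2 higher, and 0 lower each time. Hspa13, an HSP70-like protein of the microsomal lumen, was at 108, 112 and 113 CPM in the high-fat libraries, against 75.5 and 72.2 CPM in the chow libraries. This is 0.58 ± 0.08 on the log2 scale (SE; limma adjusted p = 0.00358). Hspa2, known for its role in sperm development, was at 24.1, 28.1 and 26.2 CPM in the high-fat libraries, against 16.0 and 16.6 CPM in the chow libraries (0.65 ± 0.10, adjusted p = 0.00560). Both kept their calls when any 1 high-fat library was left out. With the summed CPM as library size both stayed above 0 without passing, at 0.34 for Hspa13 and 0.42 for Hspa2 (limma adjusted p = 0.351 and 0.208). Neither was called with library sizes that excluded acinar and insulin transcripts, at 0.004 and 0.093 (limma adjusted p = 0.968 and 0.445).

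Hspa14 and Dnajc2 form the ribosome-associated complex that meets nascent chains, and they moved apart. Hspa14, its HSP70 part, was at 18.8, 20.9 and 19.0 CPM in the high-fat libraries, against 12.1 and 15.3 CPM in the chow libraries. It was called higher at 0.49 ± 0.12 (limma adjusted p = 0.0297), with -0.05 when library sizes excluded acinar and insulin transcripts. Dnajc2, its J-domain part, was at 12.0, 10.3 and 9.62 CPM in the high-fat libraries, against 15.2 and 17.2 CPM in the chow libraries (-0.57 ± 0.13, adjusted p = 0.0208). Dnajc21, a J-domain protein of ribosome assembly, was at 24.0, 22.8 and 24.5 CPM in the high-fat libraries, against 29.8 and 33.9 CPM in the chow libraries (-0.41 ± 0.09, adjusted p = 0.0225). Hspa14 was no longer called when high-fat replicate 1, 2 or 3 or chow replicate 1 was left out (limma adjusted p = 0.0694, 0.0984, 0.0780 and 0.111). Dnajc2 lost it without high-fat replicates 2 and 3 and chow replicate 3 (0.0706, 0.0673 and 0.0668, limma adjusted p). Dnajc21 lost it without high-fat replicates 1, 2 and 3 and chow replicate 3 (limma adjusted p = 0.0654, 0.0817, 0.0619 and 0.0588).

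Mitochondrial members pointed in both directions. Hspa9, the matrix HSP70 mortalin, was at 128, 122 and 125 CPM in the high-fat libraries, against 157 and 169 CPM in the chow libraries (-0.38 ± 0.08 on the log2 scale, limma adjusted p = 0.0207). Dnajc19, a J-domain protein of the import motor at the inner membrane, was at 4.44, 3.85 and 3.79 CPM in the high-fat libraries, against 7.15 and 6.83 CPM in the chow libraries (-0.67 ± 0.13, adjusted p = 0.0152). Dnaja3, the matrix J-domain protein, was at 40.3, 38.2 and 41.2 CPM in the high-fat libraries, against 30.2 and 33.7 CPM in the chow libraries. It was called higher at 0.31 ± 0.09 (adjusted p = 0.0409), yet called lower at -0.25 with library sizes that excluded acinar and insulin transcripts (adjusted p = 0.0244). Together with Hspd1, Hspe1, Dnajc11, Dnajc15 and Dnajc30, these make 8 mitochondrial members, of which 1 rose and 2 fell. All 8 were lower once library sizes excluded acinar and insulin transcripts, as were 9460 of all 17047 genes tested in that scaling. The group of 8 was drawn up after the values were seen. Hspa9 was no longer called when high-fat replicate 1, 2 or 3 was left out (limma adjusted p = 0.0654, 0.0842 and 0.0752), nor with the summed CPM (-0.62, limma adjusted p = 0.0713). Dnajc19 lost it without high-fat replicates 2 and 3 and chow replicate 1 (limma adjusted p = 0.0556, 0.0536 and 0.0704). Dnaja3 kept it only without chow replicate 3 among the 5 libraries (0.0896 to 0.142 without each other library, limma adjusted p).

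Of the J-domain proteins anchored in the endoplasmic reticulum membrane, several were higher with the deposited CPM. Dnajb12, which helps degrade misfolded membrane proteins, was at 56.4, 57.5 and 59.9 CPM in the high-fat libraries, against 41.3 and 39.9 CPM in the chow libraries. It was called higher at 0.50 ± 0.08 (limma adjusted p = 0.00567), with -0.07 when library sizes excluded acinar and insulin transcripts. Its relative Dnajc18 was at 43.4, 44.5 and 46.3 CPM in the high-fat libraries, against 29.2 and 32.9 CPM in the chow libraries (0.52 ± 0.09, adjusted p = 0.00819, and -0.05 in that scaling). Both were called whichever high-fat library was left out. Dnajc16 was at 24.6, 25.8 and 24.1 CPM in the high-fat libraries, against 16.3 and 19.0 CPM in the chow libraries (0.47 ± 0.10, adjusted p = 0.0174, and -0.08 in that scaling). It was no longer called without high-fat replicates 1, 2 and 3 and without chow replicate 1 (limma adjusted p = 0.0547, 0.0683, 0.0520 and 0.0635). Dnajb14, a close relative of Dnajb12, was at 66.0, 63.8 and 68.6 CPM in the high-fat libraries, against 62.2 and 70.1 CPM in the chow libraries (0.00 ± 0.09, adjusted p = 0.996, and -0.57 with library sizes that excluded acinar and insulin transcripts, adjusted p = 0.00116). With Dnajc1, Dnajc14 and Hspa13 of the microsomal lumen, these make 7 members of the endoplasmic reticulum, of which 4 rose and 0 fell. Over all tested genes 14.9% rose and 8.78% fell. Of the 7, 4 were higher and 0 lower at an unadjusted limma p below 0.05, against 4032 and 2544 of all 16939 tested genes. With library sizes that excluded acinar and insulin transcripts 0 were higher and 3 lower, and with the summed CPM none was called. The group was formed after its values were seen. Its median log2 fold change was 0.47, against 0.05 over all tested genes. The choice of members had left out other chaperones of this compartment. Of these, Hspa5, Hsp90b1, Dnajb9, Dnajb11, Dnajc3 and Dnajc10 stood at 0.02, 0.05, 0.27, 0.10, 0.05 and -0.19.

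Cytosolic J-domain proteins of the DNAJA and DNAJB types diverged. Dnaja2, a constitutive partner of HSC70 in refolding, was at 37.9, 41.6 and 38.7 CPM in the high-fat libraries, against 55.0 and 58.7 CPM in the chow libraries. It fell by 0.52 ± 0.08 on the log2 scale (SE; limma adjusted p = 0.00688) and was called lower under each of the 15 alternatives. Dnaja4 was at 107, 117 and 98.9 CPM in the high-fat libraries, against 65.9 and 80.0 CPM in the chow libraries. It was called higher at 0.56 ± 0.12 (adjusted p = 0.0170), with -0.02 when library sizes excluded acinar and insulin transcripts. Dnaja1, a heat-responsive relative, was at 65.1, 48.9 and 63.0 CPM in the high-fat libraries, against 49.2 and 82.4 CPM in the chow libraries (-0.12 ± 0.22, adjusted p = 0.720). Its sign turned to 0.25 when chow replicate 3 was left out and to 0.01 when high-fat replicate 2 was. Dnaja4 was not called without high-fat replicates 1 and 2 and chow replicate 1 (limma adjusted p = 0.0543, 0.0629 and 0.0620).

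Dnajb5, a relative of Dnajb1, was at 5.19, 6.19 and 6.08 CPM in the high-fat libraries, against 3.40 and 3.85 CPM in the chow libraries (0.56 ± 0.14, limma adjusted p = 0.0319). Dnajb13, a component of sperm flagella and motile cilia, was low, at 1.88, 2.22 and 1.46 CPM in the high-fat libraries, against 0.373 and 0.816 CPM in the chow libraries (0.85 ± 0.20, adjusted p = 0.0246). For both, every high-fat library was above every chow library. Dnajb4 was at 29.8, 31.2 and 31.8 CPM in the high-fat libraries, against 25.9 and 33.0 CPM in the chow libraries (adjusted p = 0.648). Dnajb2, best known from neurons, did not overlap between the diets, at 0.39 ± 0.13 (adjusted p = 0.0685). Dnajb5 was not called with library sizes that excluded acinar and insulin transcripts (0.084, limma adjusted p = 0.626) or with the summed CPM (0.36, limma adjusted p = 0.340). It kept its call only without chow replicate 3 among the 5 libraries (limma adjusted p = 0.0515 to 0.129 without each other library). Dnajb13 lost it without high-fat replicates 1 and 2 and chow replicate 1 (limma adjusted p = 0.0659, 0.0804 and 0.124).

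The DNAJC proteins differ in everything but the J domain, and 2 of 24 rose while 5 fell. Over all tested genes 14.9% rose and 8.78% fell. Excluding acinar and insulin transcripts from library sizes gave 0 higher and 18 lower, and with the summed CPM 0 were higher and 6 lower. In the first of these scalings 9460 of all 17047 tested genes were lower. Dnajc7, a TPR protein that binds both HSP70 and HSP90, was at 32.5, 32.9 and 32.0 CPM in the high-fat libraries, against 51.0 and 49.8 CPM in the chow libraries. It fell by 0.62 ± 0.07 on the log2 scale (SE; limma adjusted p = 0.00240), the smallest p of all members. Dnajc8, which is associated with the spliceosome, was at 15.2, 16.2 and 18.8 CPM in the high-fat libraries, against 30.1 and 27.8 CPM in the chow libraries (-0.76 ± 0.11, adjusted p = 0.00534). With Dnaja2, these were the 3 members that kept their call and direction under each of the 15 alternatives. The alternatives do not treat both directions alike. Library sizes that excluded acinar and insulin transcripts and the summed CPM moved the median of all genes to -0.44 and -0.15. Both favour lower calls, and Hspa13, Hspa2 and Dnajb12 lost their higher calls only in these scalings. Of the 31-base words of Dnajc8, 21.2% also occurred in the annotated gene Gm4928.

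Several DNAJC genes of varied known roles did not pass the threshold. Dnajc5, the cysteine string protein of secretory vesicles, was at 85.6, 97.3 and 85.5 CPM in the high-fat libraries, against 83.4 and 93.6 CPM in the chow libraries (0.02 ± 0.10, limma adjusted p = 0.923). Dnajc6, auxilin, which helps HSP70 uncoat clathrin vesicles, was at 44.2, 56.6 and 45.9 CPM in the high-fat libraries, against 43.1 and 44.7 CPM in the chow libraries (adjusted p = 0.407). Dnajc13, a J-domain protein of endosomes, was at 71.0, 73.2 and 74.9 CPM in the high-fat libraries, against 60.8 and 84.8 CPM in the chow libraries (adjusted p = 0.917). Dnajc12, partner of the aromatic amino acid hydroxylases, was at 20.2, 21.1 and 18.0 CPM in the high-fat libraries, against 22.1 and 20.9 CPM in the chow libraries (adjusted p = 0.428). Dnajc24, needed for the diphthamide modification of a translation factor, came nearest to the threshold among the DNAJC genes that missed it (-0.52 ± 0.16, adjusted p = 0.0544). Of all 44 members not past the threshold, 25 had a log2 fold change within 0.2 of 0, and in 14 the values of the diets were fully apart, of which 7 were higher and 7 lower in high-fat islets (15.9% each). Over all genes not past the threshold these shares were 23.5% and 18.0%.

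**Figure D4:**
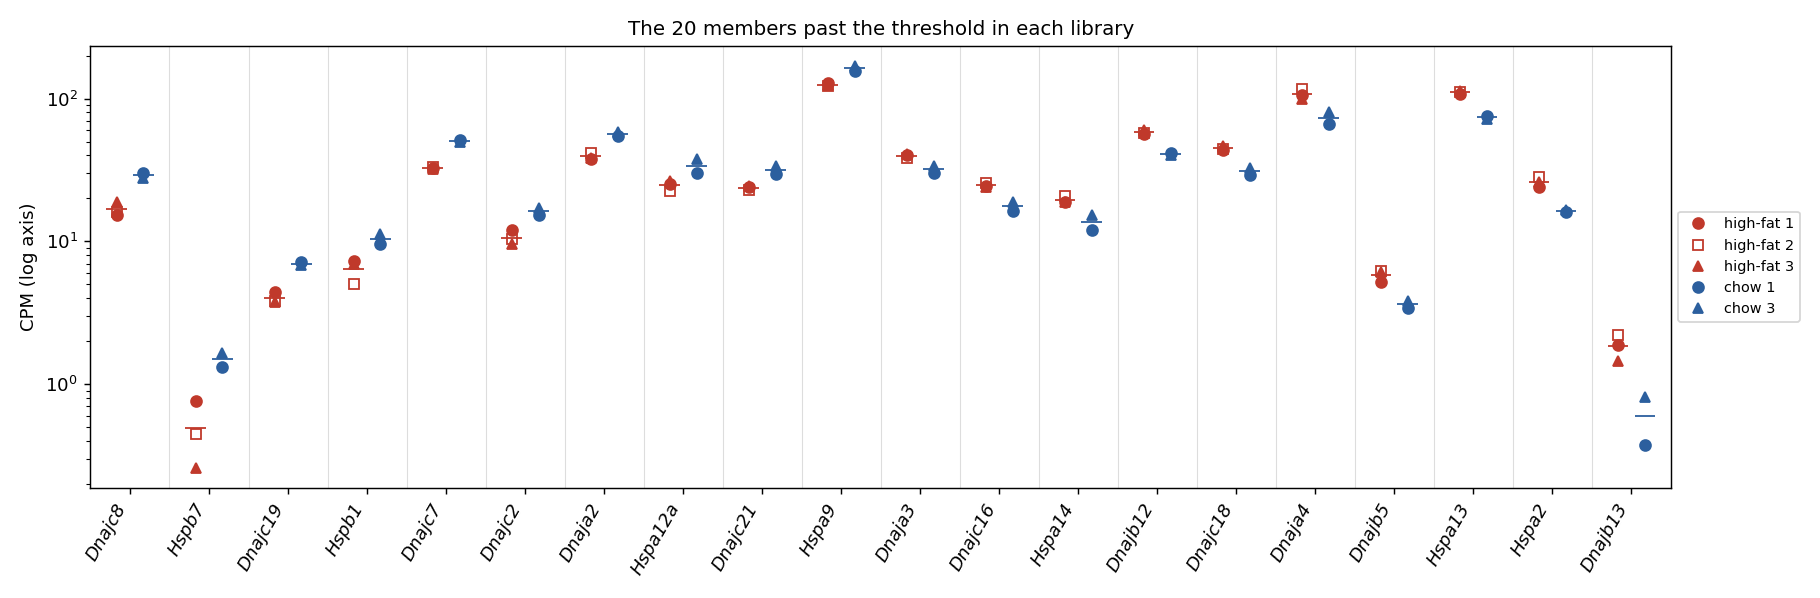
CPM (y axis, log) of the 20 members past the threshold in each library, ordered from the largest decrease to the largest increase in high-fat islets; high-fat libraries are red and on the left of each column, chow libraries blue and on the right, and short lines are the means. The diets do not overlap in any of the 20, as calls from so few libraries mostly require.

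The small heat shock proteins were low in the islets, and 2 of the 5 tested fell, against 8.78% of all tested genes. Hspb1, the HSP25 of the mouse, was at 7.31, 5.03 and 6.97 CPM in the high-fat libraries, against 9.53 and 11.2 CPM in the chow libraries (-0.62 ± 0.17, SE, limma adjusted p = 0.0412). Hspb7, known from heart and muscle, was at 0.761, 0.451 and 0.261 CPM in the high-fat libraries, against 1.33 and 1.66 CPM in the chow libraries (-0.75 ± 0.19, adjusted p = 0.0316). Hspb8, which works with BAG3 in selective autophagy, was at 12.4, 8.99 and 11.5 CPM in the high-fat libraries, against 9.93 and 13.8 CPM in the chow libraries (adjusted p = 0.720). Hspb6, a muscle protein, was at 10.7, 9.01 and 9.66 CPM in the high-fat libraries, against 8.14 and 15.1 CPM in the chow libraries (adjusted p = 0.611). Hspb11, a part of intraflagellar transport, did not overlap between the diets, at -0.26 ± 0.15 (adjusted p = 0.255). Hspb1 was not called when any 1 of the 5 libraries was left out (limma adjusted p = 0.0593 to 0.137). Hspb7 was called only without high-fat replicate 1 (0.0794 to 0.102 otherwise, limma adjusted p). Of the 31-base words of Hspb1, 56.7% also occurred in the pseudogene Hsp25-ps1.

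Markers of stromal and vascular cells, in which small heat shock proteins and Hspa12b are also known, were lower in the same libraries. Fibroblast and stellate markers summed to 156, 183 and 195 CPM in the high-fat libraries, against 369 and 280.1 CPM in the chow libraries, with 7 of 10 lower and 0 higher. Endothelial markers summed to 308, 376 and 351 CPM in the high-fat libraries, against 391 and 458 CPM in the chow libraries, with 2 of 8 lower and 0 higher. At an unadjusted limma p below 0.05, 8 fibroblast and stellate and 4 endothelial markers were lower, and 0 of the 18 were higher. Over all 16939 tested genes, 2544 were lower and 4032 higher at that cut. None of the 18 markers was at 0 in all libraries. Muscle markers summed to 13.0, 14.7 and 12.8 CPM in the high-fat libraries, against 27.3 and 26.2 CPM in the chow libraries, with 1 of 3 tested lower and 7 below the filter. The part of these cells in the lower small heat shock proteins was not tested. Hspa12b, an HSP70-like protein of endothelial cells, was at 5.59, 4.34 and 5.34 CPM in the high-fat libraries, against 6.34 and 8.48 CPM in the chow libraries (-0.46 ± 0.17, limma adjusted p = 0.0911). Hspa12a, its relative, was at 25.2, 22.4 and 26.3 CPM in the high-fat libraries, against 29.9 and 37.9 CPM in the chow libraries (-0.44 ± 0.12, adjusted p = 0.0441). Hspa12a was no longer called when high-fat replicate 1, 2 or 3 or chow replicate 3 was left out (limma adjusted p = 0.0959, 0.131, 0.0832 and 0.139).

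Among HSP110 and HSP-binding members other than Hsph1, values of the diets lay close. Hspa4 was at 98.5, 89.1 and 97.5 CPM in the high-fat libraries, against 91.8 and 104.6 CPM in the chow libraries (limma adjusted p = 0.752). Hspa4l was at 61.1, 55.2 and 74.9 CPM in the high-fat libraries, against 46.4 and 70.4 CPM in the chow libraries (adjusted p = 0.622). Hspbp1, a nucleotide exchange factor of HSP70, was at 11.8, 12.1 and 11.6 CPM in the high-fat libraries, against 10.8 and 10.8 CPM in the chow libraries (adjusted p = 0.401). Of the 3 HSP110 and 2 HSP-binding genes, 0 passed the threshold and 0 had an unadjusted limma p below 0.05.

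Partners of the chaperones were taken from lists of known genes. Of 31 HSP90 and HSP70 co-chaperones tested, 4 were higher and 4 lower, with a median log2 fold change of 0.07. Over all tested genes 14.9% were higher and 8.78% lower. Excluding acinar and insulin transcripts from library sizes gave 0 higher and 23 lower, and with the summed CPM 0 were higher and 3 lower. In the first of these scalings 9460 of all 17047 tested genes were lower. Ahsa2, a relative of the HSP90 activator Ahsa1, was at 15.8, 11.1 and 17.2 CPM in the high-fat libraries, against 38.9 and 47.6 CPM in the chow libraries (-1.51, limma adjusted p = 0.00258). Sugt1, an HSP90 adaptor, was at 11.4, 9.77 and 10.1 CPM in the high-fat libraries, against 18.6 and 17.9 CPM in the chow libraries (-0.75, adjusted p = 0.00446). Sgta and Bag2 were called higher at 0.41 and 0.48 (adjusted p = 0.0181 and 0.0327), with -0.16 and -0.05 when library sizes excluded acinar and insulin transcripts. Neither was called when chow replicate 1 was left out (limma adjusted p = 0.0647 and 0.135), nor when high-fat replicate 2 (0.0639 and 0.106) or 3 (0.0672 and 0.0579) was. Bag2 was also not called without high-fat replicate 1 (0.0932, limma adjusted p).

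Of 15 genes of the cytosolic chaperonin TRiC and its feeder prefoldin, 2 were lower and 0 higher. At an unadjusted limma p below 0.05, 6 were lower and 0 higher, against 2544 and 4032 of all 16939 tested genes. Once acinar and insulin transcripts were excluded from library sizes, 14 of the 15 were lower, against 9460 of all 17047 tested genes. The 2 lower in the deposited CPM were prefoldin subunits, Vbp1 at -0.75 and Pfdn2 at -0.42 (limma adjusted p = 0.0100 and 0.0217). Pfdn2 was not called without high-fat replicates 1, 2 and 3 or chow replicate 1 (limma adjusted p = 0.0613, 0.0678, 0.0744 and 0.0798). Of 9 mitochondrial protease genes, 8 were lower with library sizes that excluded acinar and insulin transcripts, as were 9460 of 17047 tested genes. In the deposited CPM, Clpx, the unfoldase of the ClpXP protease, was lower (-0.53, adjusted p = 0.00983) and Oma1, a stress-activated protease, was higher (0.57, adjusted p = 0.0334). Oma1 was not called with library sizes that excluded acinar and insulin transcripts (0.046, limma adjusted p = 0.786) or the summed CPM (0.35, limma adjusted p = 0.339). It was called only without chow replicate 3 among the 5 libraries (0.0715 to 0.143 otherwise, limma adjusted p). Of 17 other heat shock response genes, 2 were higher and 0 lower, and at an unadjusted limma p below 0.05, 6 were higher and 0 lower. Library sizes that excluded acinar and insulin transcripts gave 0 higher and 8 lower, and with median-ratio scaling or the summed CPM none was called. The 2 were the immunophilin Fkbp4 (0.53, adjusted p = 0.0438) and Hsbp1, which binds HSF1 (0.31, adjusted p = 0.0449), with -0.05 and -0.26 when library sizes excluded acinar and insulin transcripts. Fkbp4 was called only without chow replicate 3 (0.0898 to 0.123 otherwise, limma adjusted p), and Hsbp1 in none of the 5 fits that leave out a library (0.0635 to 0.135). Cryab, a lens and muscle relative of the small heat shock proteins, was at 2.50, 1.38 and 1.79 CPM in the high-fat libraries, against 4.04 and 2.10 CPM in the chow libraries (adjusted p = 0.226).

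In the lumen of the endoplasmic reticulum, 3 of 15 chaperone genes were higher and 0 lower. Over all tested genes 14.9% were higher and 8.78% lower. At an unadjusted limma p below 0.05, 8 of the 15 were higher and 0 lower, against 4032 and 2544 of all 16939 tested genes. Hyou1, an HSP70 relative of that lumen, was at 702, 659.7 and 703 CPM in the high-fat libraries, against 308 and 367 CPM in the chow libraries (1.03, limma adjusted p = 0.00339). Pdia4, a disulfide isomerase, and Sdf2l1, which joins DNAJB11, were called higher at 0.71 and 0.70 (adjusted p = 0.00229 and 0.00287). Hspa5, the HSP70 of the lumen known as BiP, was at 804, 749 and 784 CPM in the high-fat libraries, against 785 and 751.2 CPM in the chow libraries (0.02 ± 0.15, adjusted p = 0.934). With library sizes that excluded acinar and insulin transcripts, 1 of the 15 was higher and 10 were lower, and with the summed CPM as library size none was called. With the summed CPM Hyou1, Pdia4 and Sdf2l1 remained above 0, at 0.79, 0.47 and 0.47.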

How the data were processed

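RNA sequencing of isolated islets was analysed for 3 high-fat and 3 chow samples, grouped by the labelled diet. Per the submitters' processing notes the deposited table was made with Partek. The version, aligner, genome build and counting method were not given in the sources used here. No label names the unit. The values deposited by the authors were taken as CPM with 1 added, since the lowest value is exactly 1 in each column and most low values step as reads would, and 1 was subtracted here. The columns do not sum to a common total, so the scaling is uncertain. Only 64.6% to 70.0% of values at or below 20 reads came out whole (tolerance 0.1), so no counts were recovered. At 3 reads the floor of a library was 0.0856 to 0.160 CPM, which covers counting error only. The averaged chow column was left out. Nothing in the labels says that samples are separate animals, and the p-values cover only the spread among these samples, which may be technical.

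The tests used log2(CPM + 1) and limma 3.58.1 (R 4.3.3), whose variance prior followed a trend, on the 16939 genes averaging 0.5 CPM or more, with Benjamini-Hochberg adjustment over all of them. Fold changes on this scale understate those of low genes. In simulated data for high-fat against chow on 16939 genes, 62% of the 100 genes given a log2 change of 1 were called. Of the 100 given a change of 2, 91% were called, with 2 false calls among 155. The noise was independent between genes, without shared shifts of acinar content or library type, and low genes were not changed. The members ranged only from -0.76 to 0.85, so these rates do not cover them and are no error rate for the real calls. Named were all members past the threshold, the HSF, HSP70, HSP90, HSP110, chaperonin and small HSP members, 5 J-domain genes and up to 4 called genes of each pathway list. Dnajb2, Dnajb3, Dnajb14, Dnajc1, Dnajc5, Dnajc6, Dnajc11 to Dnajc15, Dnajc24, Dnajc30, Hspbp1, Hspa5, Cryab, Stip1 and Ahsa1 were named outside this rule, after their values were seen. The members and lists were chosen with earlier results of these data known. Of the gene names, 46369 matched a mouse symbol, among them all 71 members, and 27 had become dates. Transcript lengths and shared words were read from GENCODE M21; the authors may have used another annotation.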

Additional observations from a re-analysis of the deposited data

How the results depend on the processing

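Changing the scaling, the filter or the libraries moved the counts of calls. Among members, 1 was higher and 41 lower with library sizes that excluded acinar and insulin transcripts, 1 was higher with the summed CPM as library size, 4 were higher and 4 lower with no filter on low values, and 3 were higher and 3 lower with the acinar score in the fit. Among all genes these settings gave 745 higher and 9460 lower, 895 higher, 1080 higher and 573 lower, and 963 higher and 599 lower, and all 6 columns gave 4224 higher and 2828 lower. The main counts over all genes were 2524 higher and 1487 lower. Leaving out 1 library gave 4 to 14 members higher and 3 to 10 lower, and 1167 to 2969 genes higher and 682 to 1415 lower.

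For the genes named in the text, log2 fold changes with the opposite sign were as follows, and the cause was not tested. With library sizes that excluded acinar and insulin transcripts they were -0.018 for Dnaja4, -0.25 for Dnaja3, -0.068 for Dnajb12, -0.13 for Dnajb1, -0.49 for Dnajb4, -0.050 for Dnajc18, -0.083 for Dnajc16, -0.35 for Hsf1, -0.40 for Hsf4, -0.43 for Hspa4l, -0.47 for Hsp90aa1, -0.052 for Hspa14, -0.077 for Hspa8, -0.062 for Hspa1l, -0.16 for Sgta, -0.050 for Bag2, -0.047 for Fkbp4, -0.26 for Hsbp1, -0.091 for Ahsa1, -0.57 for Dnajb14, -0.17 for Dnajb2, -0.55 for Dnajc1, -0.35 for Dnajc11, -0.55 for Dnajc13, -0.41 for Dnajc14, -0.43 for Dnajc15, -0.51 for Dnajc30, -0.56 for Dnajc5, -0.43 for Dnajc6, -0.56 for Hspa5, -0.41 for Hspbp1 and -0.046 for Stip1. With the summed CPM they were -0.16 for Dnajb4, -0.029 for Hsf1, -0.13 for Hsf4, -0.095 for Hspa4l, -0.14 for Hsp90aa1, -0.24 for Dnajb14, -0.22 for Dnajc1, -0.026 for Dnajc11, -0.21 for Dnajc13, -0.071 for Dnajc14, -0.14 for Dnajc15, -0.21 for Dnajc30, -0.22 for Dnajc5, -0.092 for Dnajc6, -0.22 for Hspa5 and -0.10 for Hspbp1. The acinar score gave -0.036 for Dnajb4, -0.010 for Hsp90aa1, -0.019 for Dnajb14, -0.12 for Dnajc13, -0.074 for Dnajc30, -0.11 for Dnajc5 and -0.032 for Dnajc6. Median-ratio scaling gave -4e-04 for Hsf4, -0.077 for Dnajb14, -0.056 for Dnajc1, -0.054 for Dnajc13, -0.067 for Dnajc30, -0.062 for Dnajc5 and -0.059 for Hspa5, and all 6 columns gave -3e-04 for Dnajb14. Over the fits that each leave out 1 library, genes whose sign turned ranged over -0.49 to 0.25 for Dnaja1, -0.34 to 1.20 for Dnajb1, -0.084 to 0.085 for Dnajb14, -0.091 to 0.25 for Dnajb4, -0.033 to 0.074 for Dnajc1, -0.21 to 0.26 for Dnajc13, -0.086 to 0.090 for Dnajc30, -0.067 to 0.098 for Dnajc5, -0.14 to 0.27 for Hsf4, -0.28 to 0.49 for Hsp90aa1, -0.33 to 0.074 for Hsp90ab1, -1.58 to 0.53 for Hspa1a, -1.54 to 0.17 for Hspa1b, -0.093 to 0.56 for Hspa1l, -0.14 to 0.048 for Hspa4, -0.15 to 0.44 for Hspa4l, -0.012 to 0.051 for Hspa5, -0.58 to 0.24 for Hspb6, -0.32 to 0.12 for Hspb8, -0.38 to 0.073 for Hspd1 and -0.22 to 1.62 for Hsph1.

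Of the 20 called members, 7 kept their call and direction whichever library was left out, and 3 of them (Dnaja2, Dnajc7 and Dnajc8) under all 15 alternatives. Scalings that lower the median of all genes favour lower calls, and these 3 are all lower. Fits without a chow library take their spread from the high-fat libraries alone, so calls kept there are no evidence of a difference. No paired analysis was possible because the labels give the diets no shared replicate numbers. With 2 chow libraries, a difference between them weighs on every comparison, and low genes such as Hspb7 and Dnajb13 rest on few reads. The part of acinar cells and of library type in the results was not tested.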
